A study of Homo sapiens with 6 samples.

Results

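The mRNAs of 49 factors that assemble the large (60S) subunit of the ribosome were followed in HEK293 cells making adeno-associated virus (AAV). The 49 genes were taken by symbol from the deposited table, where each has 1 row among 18164 distinct genes. All 49 reached the level needed for testing, at least 1 TPM (an abundance corrected for transcript length and scaled to a fixed total per library) in at least 3 libraries. The cells were a commercial derivative of HEK293, an established line from human embryonic kidney, grown in suspension. The transfected cultures had received a pair of plasmids that together encode what AAV needs, delivered with a polymer reagent, and were collected 18 h later. The untransfected cultures had received PBS in place of plasmids and reagent, and the time of collection was the same. Each group had 3 libraries (6 in all), and only 1 cell line was used. Nothing in the labels ties the replicates to separate cultures. The spread behind each p-value is therefore that of these libraries and may be technical. Differences between groups cover plasmids, reagent and vector production together.

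The large subunit is built in the nucleolus around the 28S, 5.8S and 5S ribosomal RNAs (rRNAs). Assembly factors fold, cleave and modify the precursor rRNA, hold the place of ribosomal proteins that join later, and are stripped off in steps driven by ATPases and GTPases. The particle then passes through the nuclear pore with an export adaptor, and its last factors leave in the cytoplasm. These genes are expressed in most human tissues, and many are known targets of the transcription factor MYC, which with its partner MAX recognises the E-box CACGTG.

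The promoters of these genes were read for short motifs. RefSeq promoters (GRCh38.p14, 250 bases before to 50 after the annotated start) were matched for 42 of the 49 genes. BOP1, MAK16, RPF2, RRP1B, RRS1, RSL1D1 and URB2 were not matched. The E-box CACGTG, which reads the same on both strands, was found in 14 of the 42 (33.3%), against 10.0% of the 11360 promoters of tested genes and 7.43% of all 27305 promoters. Of its 15 matches, 10 lay within 50 bases of the start, and 9 of these followed the start. These 10 are given here with up to 10 bases on either side, read on the strand of the gene, with the E-box in capitals and its first base counted from the start.

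GNL2 (chr1:37595919-37595944, minus strand, first base at 4): acgtcgtgcaCACGTGgtccggcgtg
PES1 (chr22:30591882-30591907, minus strand, first base at 14): cttggcagggCACGTGcgggaggaag
MRTO4 (chr1:19251809-19251834, plus strand, first base at 15): tcttccgccgCACGTGgattcagcgc
NOC3L (chr10:94362905-94362930, minus strand, first base at 20): gggacttcggCACGTGtgtcattccc
MYBBP1A (chr17:4555342-4555367, minus strand, first base at 28): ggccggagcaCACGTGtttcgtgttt
MDN1 (chr6:89819752-89819777, minus strand, first base at 28): tgtgctcaccCACGTGtggtgcccct
NOP2 (chr12:6568242-6568266, minus strand, first base at 36): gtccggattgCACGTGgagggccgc
NLE1 (chr17:35142276-35142301, minus strand, first base at 13): ctttctcctcCACGTGgggacgcagg
TEX10 (chr9:100352957-100352982, minus strand, first base at -30): gggctgcgatCACGTGagcacagcag
TMA16 (chr4:163494686-163494711, plus strand, first base at 7): tctcaggcgcCACGTGggattcggcc

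The ETS-family core CCGGAAG, or CTTCCGG on the other strand, was found in 19 of the 42 (45.2%), against 18.9% of promoters of tested genes and 10.7% of all. Of its 21 matches, 20 began upstream of the start, and in NOP16 a match on each strand overlapped the other. The 6 given here are the upstream matches of the members with the largest increases among those that hold one, with the core in capitals.

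BRIX1 (chr5:34915596-34915622, plus strand, first base at -105): gccaccgagaCCGGAAGgaggcggcac
WDR74 (chr11:62839589-62839615, minus strand, first base at -15): acacgctgcgCCGGAAGtgtgaactgt
GTPBP4 (chr10:988367-988393, plus strand, first base at -57): ggctgagctcCCGGAAGtgacgtacct
RPF1 (chr1:84479193-84479219, plus strand, first base at -63): ctttgcgaccCCGGAAGtaaaaggtta
NOC3L (chr10:94362971-94362997, minus strand, first base at -48): cccgccctcaCTTCCGGcggcggagga
LSG1 (chr3:194672222-194672248, minus strand, first base at -47): cttatcgtcaCTTCCGGggatcgaact

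Either motif was present in 29 of the 42 and both were present in 4. The other motifs searched on both strands, CGCATGCG (bound by NRF1), AAGATGGC (bound by YY1) and TATAAA (the TATA box), were found in 1, 3 and 1 of the 42 (2.38%, 7.14% and 2.38%), against 3.95%, 5.24% and 5.41% of promoters of tested genes. No match of a motif overlapped a match of another motif. The E-box was also found in 20 of 49 promoters of 40S subunit factors (40.8%) and 8 of 36 of further 60S assembly factors (22.2%). It was found in 2 of 38 promoters of large subunit ribosomal proteins (5.26%). For the ETS core these 3 lists had 19 (38.8%), 17 (47.2%) and 12 (31.6%) promoters, in the same order. Within the 42, genes with and without an E-box had median log2 folds of 0.42 and 0.38, and genes with and without the ETS core 0.38 and 0.42. These medians leave out the genes with no matched promoter, among them RSL1D1 and RRS1, which had the largest changes. Their log2 folds were 0.88 (RSL1D1), 0.84 (RRS1), 0.68 (RPF2), 0.52 (MAK16), 0.38 (RRP1B), 0.32 (BOP1) and 0.25 (URB2). A match describes letters in this window and says nothing of whether a factor was bound.

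Libraries were compared first for features that could touch these genes. Between 15714 and 16138 genes had at least 1 TPM per library. TPM keep no record of read number, so depth is unknown. Genes of the mitochondrial chromosome took 28.4% to 31.6% of TPM in transfected and 31.3% to 37.6% in untransfected libraries, with the highest share in untransfected replicate 3. That library was also the lowest of its group for 41 of the 49 genes. The second principal component (16.6% of variance) set it and transfected replicate 1 apart from the other 4. Of 10 genes listed as HEK293 markers, 9 were above 1 TPM in every library, and LHX1 was at 0.33 to 0.57 TPM. Summed, the 10 were at 953 to 958 TPM in transfected and 739 to 798 TPM in untransfected libraries. Most of this sum was VIM, at 550 to 560 TPM in transfected and 407 to 447 TPM in untransfected libraries. The marker PAX2 overlapped between groups, at 3.97 to 4.83 TPM in transfected and 3.85 to 5.23 TPM in untransfected libraries, so the sum does not describe each marker. Among markers of other cell types, COL1A1 was at 12.2 to 13.9 TPM in transfected and 14.4 to 15.5 TPM in untransfected libraries. ALB and COL3A1 were each below 2 TPM, and PTPRC, CD3E, HBB, PECAM1, INS and MYH7 have no row in the table used here. The part of either marker list in the changes below was not tested.

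In transfected cells, 38 of the 49 assembly factor genes were higher and 0 lower (limma, adjusted p below 0.05). Over all 16145 genes tested, 20% were higher and 10.2% lower. The 49 log2 folds ran from 0.05 to 0.88, with a median of 0.40, beside 0.05 for all genes tested. At an unadjusted p below 0.05, 45 of the 49 were higher and 0 lower, against 26.8% and 15.3% of tested genes. In 45 of the 49 all 3 transfected values lay above all 3 untransfected values, which held for 29.2% of all tested genes. The reverse order held for 0 of the 49 and for 17.3% of tested genes. A change of at least 1.5-fold was reached by 10 of the 49, against 5.20% of tested genes. Fold changes here are on the log2(TPM + 1) scale, and error is the standard error (SE) of the fit. In bulk RNA, more transcript per cell and a larger share of cells expressing it cannot be told apart.

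The background share of higher genes was 11.5% without transfected replicate 2 and 11.8% without transfected replicate 3, where 33 and 32 of the 49 were higher. The background share of lower genes was 6.07% and 6.87% when those 2 libraries were left out, and 6.45% and 6.78% when untransfected replicate 1 or 2 was left out. It was 17.3% after median-ratio scaling, 17.9% after quantile normalization, 19.3% with the mitochondrial and the 20 top genes removed, and 21.8% after GC and length correction. Of all calls, 66.3% were higher on the deposited TPM and 45.9% to 52.5% under these 4 alternatives. Among the 49 genes 37 to 41 were higher and 0 lower under the same 4, where 16.4% to 21.1% of tested genes were higher. Omitting the pair of transfected replicate 1 and untransfected replicate 3, 42 were higher and 0 lower, against 21.7% and 13.3% of tested genes. The log2 fold itself, not the fold, changed by a factor of over 1.5 under an alternative in 10 of the 38 higher genes. After quantile normalization the log2 fold was 0.21 for BOP1, 0.26 for EBNA1BP2, 0.20 for EIF6, 0.11 for FTSJ3, 0.16 for NOC2L and 0.25 for RRP1B. With the mitochondrial and the 20 top genes removed it was 0.14 for FTSJ3, 0.15 for TEX10 and 0.16 for WDR12. After GC and length correction it was 0.26 for EBNA1BP2, 0.27 for GNL3, 0.14 for TEX10 and 0.13 for WDR12, and with a pseudocount of 5 it was 0.25 for PPAN.

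Summed over the 49 genes, the 3 transfected libraries held 4810, 5065 and 5037 TPM and the 3 untransfected libraries 3676, 3729 and 3283 TPM. The groups did not overlap, and untransfected replicate 3 was the lowest. With mitochondrial genes left out of the total, the sums per 1000000 were 7033, 7139 and 7033 in transfected and 5436, 5430 and 5264 in untransfected libraries. Untransfected replicate 3 thus lay closer to the rest of its group, and the groups still did not overlap. The gap between groups on the log2 scale was smaller. On the deposited TPM, mean log2(TPM + 1) was 6.22, 6.28 and 6.27 in transfected and 5.88, 5.89 and 5.72 in untransfected libraries. Without mitochondrial genes it was 6.755, 6.766 and 6.745 in transfected and 6.427, 6.416 and 6.381 in untransfected libraries. The coefficient of variation within a group had a median of 5.47% over the 49 genes in transfected and 7.16% in untransfected cells.

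**Figure D1:**
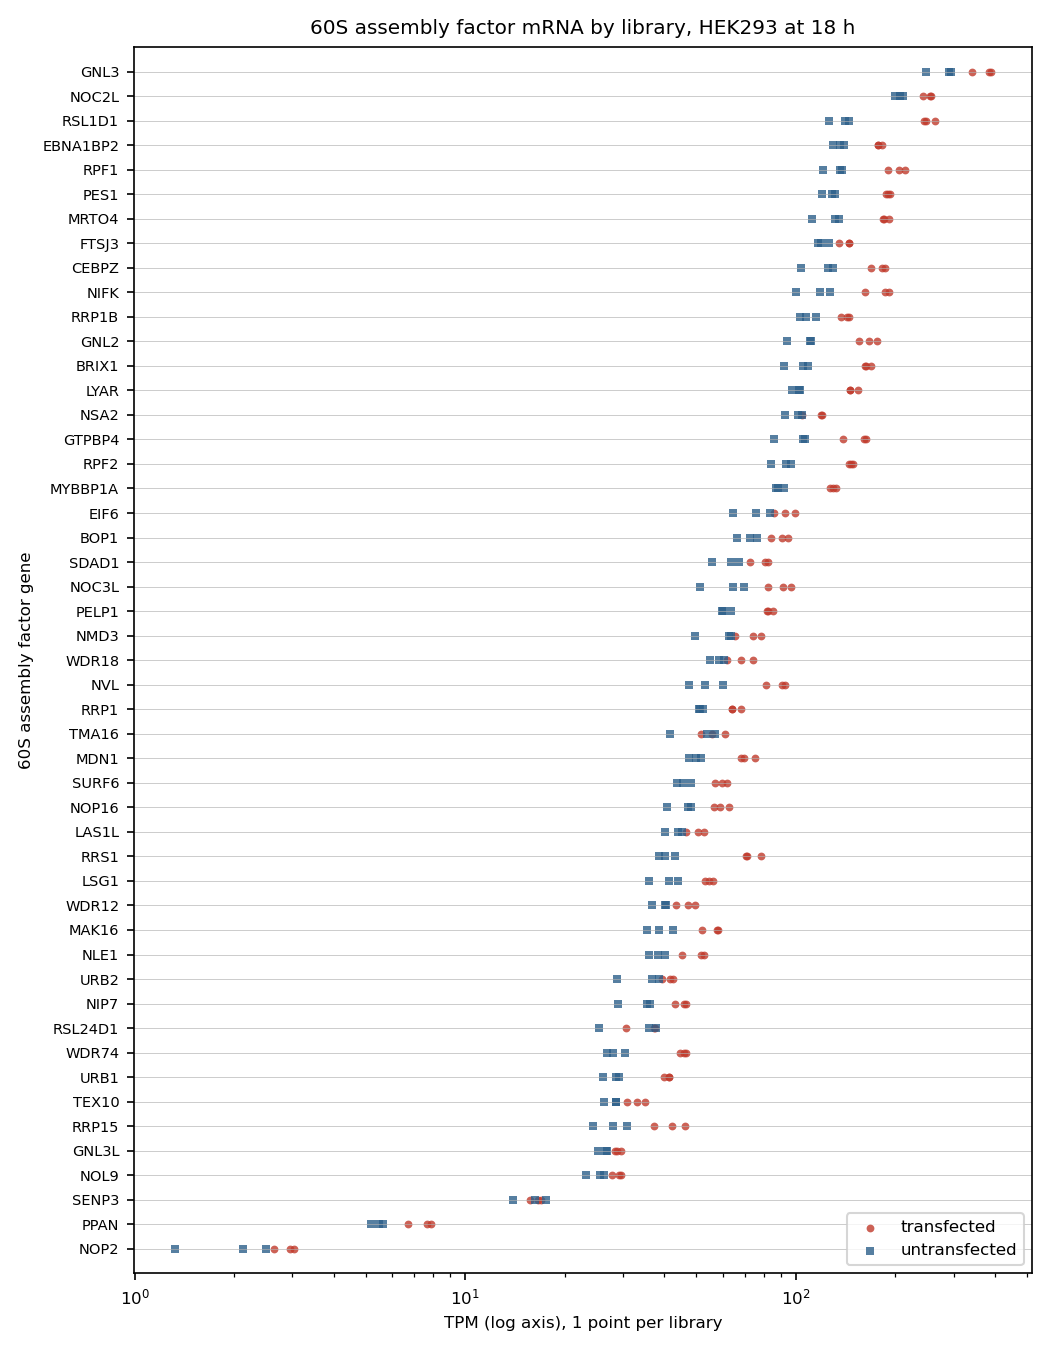
TPM of the 49 assembly factor genes in each of the 6 libraries, on a log axis, with genes ordered by their mean in untransfected cells; circles are transfected and squares untransfected libraries. The circles lie to the right of the squares without overlap for 45 of the 49 genes, and levels span from NOP2 at the bottom to GNL3 at the top.

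Levels in untransfected cells differed widely, with means from 1.98 TPM (NOP2) to 277.4 TPM (GNL3) and a median of 58.1 TPM. The log2 fold had a Pearson r of 0.29 and a Spearman rho of 0.36 with the log2 untransfected level across the 49 genes. These genes share libraries, and the log2(TPM + 1) scale itself lowers the folds of low genes. With the length and the GC content of the longest transcript, r was -0.02 and -0.13.

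**Figure D2:**
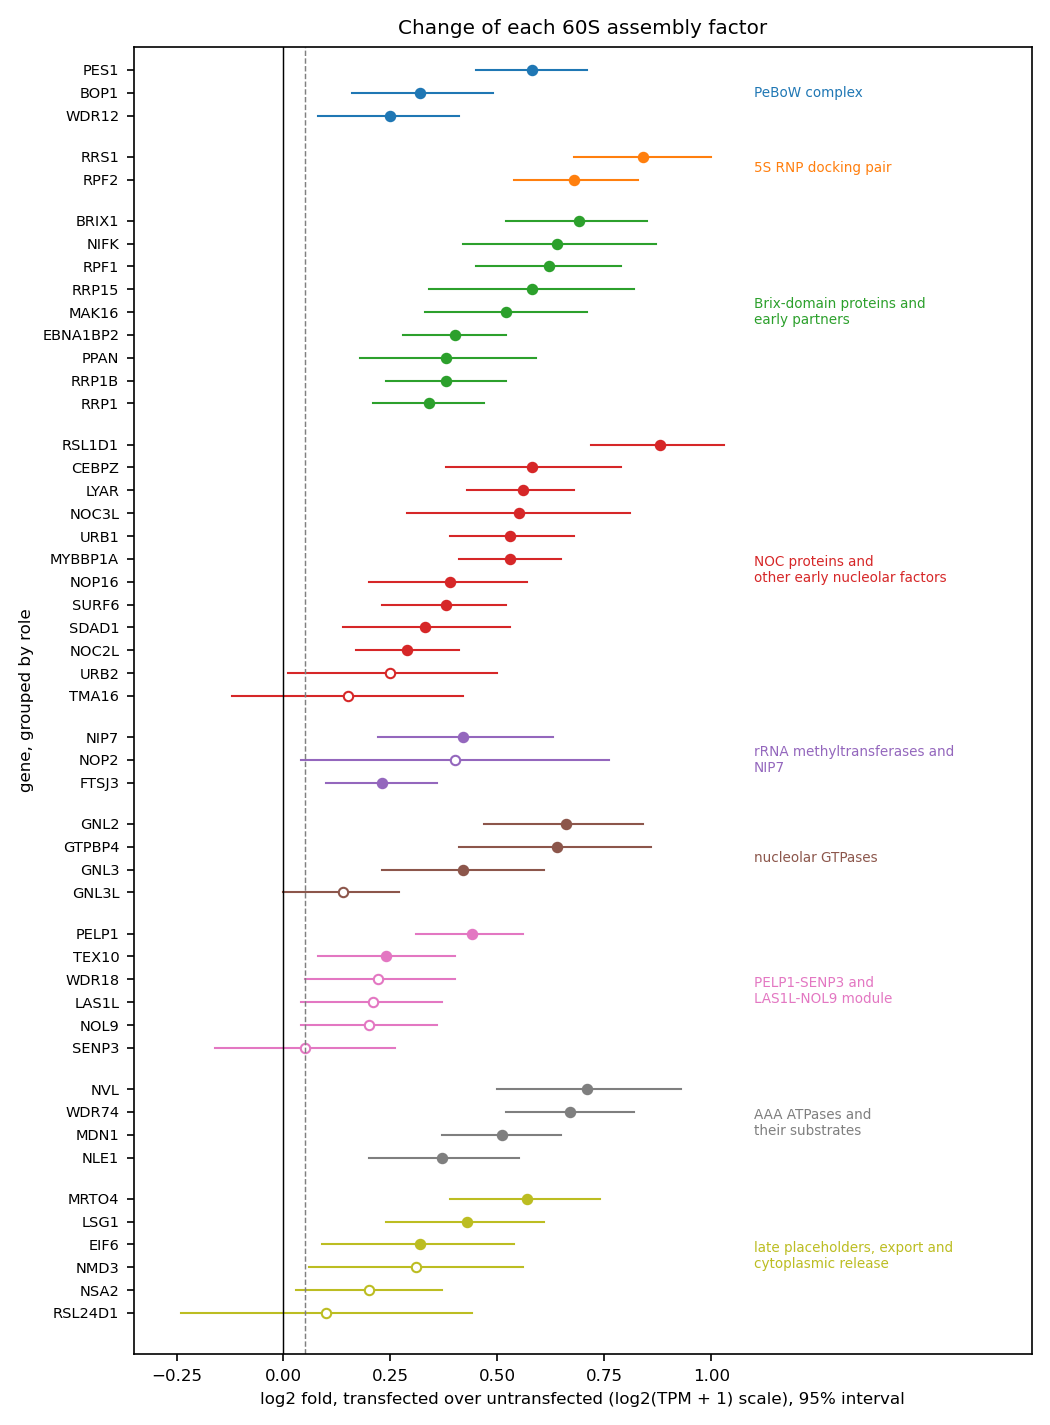
Log2 fold of each assembly factor gene, transfected over untransfected, with its 95% interval from limma, grouped by role; filled points passed at an adjusted p below 0.05, open points did not, and the dashed line marks the median of all tested genes (0.05). All 49 points lie above 0, the pair that docks the 5S particle lies furthest right of the role groups, and most open points are in the PELP1 and late groups.

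The 5S rRNA enters the growing subunit as a small particle with the ribosomal proteins RPL5 and RPL11, and RRS1 and RPF2 are the proteins that dock it. Both mRNAs rose, with the highest group median (0.76). In each role group, counts of genes that rose are at an adjusted p below 0.05, where 20% of all tested genes were higher. Values below are given in the order of replicates 1 to 3. RRS1 (ENSG00000179041, chromosome 8, 66429028 to 66430733, plus strand) was at 78.5, 70.4 and 71.1 TPM in transfected and 38.4, 40.3 and 42.95 TPM in untransfected cells (log2 fold 0.84, SE 0.069, adjusted p = 0.000278). RPF2 (ENSG00000197498, chromosome 6, 110982015 to 111028263, plus strand) was at 147, 149 and 145 TPM in transfected and 96.6, 93.4 and 83.99 TPM in untransfected cells (log2 fold 0.68, SE 0.064, adjusted p = 0.000468). In both, every transfected library stood well above every untransfected library. In GENCODE 29, 11.4% of RRS1 exonic bases are also exonic in another gene on the same strand.

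PES1, BOP1 and WDR12 form the PeBoW complex, which is needed to process the internal spacer between the 5.8S and 28S rRNAs. All 3 mRNAs rose, and PES1 rose furthest. PES1 (ENSG00000100029, chromosome 22, 30576625 to 30607083, minus strand) was at 192, 187 and 190.4 TPM in transfected and 129, 132 and 119.9 TPM in untransfected cells (log2 fold 0.58, SE 0.055, adjusted p = 0.000484). BOP1 was at 90.7, 84.3 and 94.8 TPM in transfected and 72.8, 76.2 and 66.2 TPM in untransfected cells (log2 fold 0.32, SE 0.072, adjusted p = 0.0125). WDR12, the partner that MDN1 engages, was at 43.3, 49.4 and 47.2 TPM in transfected and 40.4, 40.3 and 36.7 TPM in untransfected cells (log2 fold 0.25, SE 0.072, adjusted p = 0.0334). For all 3 genes the groups did not overlap, and the gap was narrowest for WDR12. The BOP1 call was lost without transfected replicate 3 (adjusted p = 0.0579, range over its 17 alternatives 0.00137 to 0.0579). The WDR12 call was lost when any library other than transfected replicate 1 was left out (adjusted p = 0.055 to 0.121) and without a variance trend (0.0539), over a range of 0.00822 to 0.121.

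The Brix-domain proteins BRIX1, RPF1 and PPAN and their early partners act on early nucleolar particles. All 9 genes of this group rose, with log2 folds of 0.34 to 0.69. BRIX1 (ENSG00000113460, chromosome 5, 34915376 to 34925996, plus strand) was at 162, 169 and 163 TPM in transfected and 105, 109 and 92.1 TPM in untransfected cells (log2 fold 0.69, SE 0.071, adjusted p = 0.000627). NIFK, an RNA-binding partner of the proliferation antigen Ki-67, was at 162, 191 and 186 TPM in transfected and 118, 127 and 100.3 TPM in untransfected cells (log2 fold 0.64, SE 0.098, adjusted p = 0.00269). RPF1 was at 189, 213 and 205 TPM in transfected and 138, 136 and 121 TPM in untransfected cells (log2 fold 0.62, SE 0.073, adjusted p = 0.00104). In these 3 the groups were well apart, and untransfected replicate 3 was the lowest library. RRP15, MAK16, EBNA1BP2, PPAN, RRP1B and RRP1 rose by 0.58, 0.52, 0.40, 0.38, 0.38 and 0.34 on the same scale, with adjusted p of 0.00159 to 0.0149.

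PPAN was the lowest of that group, at 7.66, 7.86 and 6.69 TPM in transfected and 5.17, 5.49 and 5.62 TPM in untransfected cells. In GENCODE 29, 59.8% of its exonic bases are also exonic in other genes on the same strand. Among the genes that overlap PPAN are the readthrough gene PPAN-P2RY11, which has no row in the data, and P2RY11. P2RY11 was itself higher (log2 fold 0.35, SE 0.105, adjusted p = 0.0391). How reads in such overlaps were counted is not given in the sources used here, so the level and the change of PPAN are uncertain. The PPAN call was lost without transfected replicate 2 (adjusted p = 0.0625) and without untransfected replicate 1 (0.0554), with a range of 0.00421 to 0.0625 over its alternatives.

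The NOC proteins and other early nucleolar factors are the largest group, of which 10 of 12 rose. RSL1D1, a nucleolar protein with a ribosomal L1 domain, had the largest change of all 49 genes. RSL1D1 (ENSG00000171490, chromosome 16, 11833850 to 11851585, minus strand) was at 244, 264 and 248 TPM in transfected and 145, 140.5 and 126 TPM in untransfected cells (log2 fold 0.88, SE 0.068, adjusted p = 0.000215). CEBPZ, the human counterpart of yeast Noc1, was at 169, 186 and 182 TPM in transfected and 125, 129.7 and 103 TPM in untransfected cells (log2 fold 0.58, SE 0.090, adjusted p = 0.00278). LYAR, a nucleolar zinc finger protein, was at 146, 154 and 146 TPM in transfected and 102, 103 and 97.04 TPM in untransfected cells (log2 fold 0.56, SE 0.054, adjusted p = 0.000495). The transfected values of all 3 lay above the untransfected values, by the widest margin for RSL1D1.

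NOC3L, URB1, MYBBP1A, NOP16, SURF6, SDAD1 and NOC2L also rose, by 0.55, 0.53, 0.53, 0.39, 0.38, 0.33 and 0.29 on the log2 scale. NOC2L and NOC3L are the counterparts of yeast Noc2 and Noc3, which bind each other, and NOC2L was the second most abundant of the 49 mRNAs (206 TPM in untransfected cells). The SDAD1 call was lost without transfected replicate 2 (adjusted p = 0.0771) and transfected replicate 3 (0.072), over a range of 0.00225 to 0.0771. URB2 did not pass, at 39.5, 41.5 and 42.5 TPM in transfected and 36.7, 38.4 and 28.7 TPM in untransfected cells (log2 fold 0.25, SE 0.105, adjusted p = 0.105). Its groups did not overlap, but untransfected replicate 3 was well below the other 2 of its group. It passed on omitting the pair of transfected replicate 1 and untransfected replicate 3 (adjusted p = 0.0464, range 0.0464 to 0.245), with a log2 fold of 0.16. Without untransfected replicate 3 alone the URB2 fold was 0.13. TMA16, a factor of 60S precursors, was at 51.7, 61.02 and 55.9 TPM in transfected and 53.7, 57.1 and 41.6 TPM in untransfected cells (log2 fold 0.15, SE 0.118, adjusted p = 0.363), and its groups overlapped. Its log2 fold was 0.02 without untransfected replicate 3, and omitting untransfected replicate 2 or transfected replicate 2 gave 0.24 and 0.09. It was 0.01 to 0.09 under the scalings and GC and length correction.

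NOP2 and FTSJ3 are methyltransferases of the large rRNA, and NIP7 is a small RNA-binding partner of early particles. NIP7 was at 43.1, 45.8 and 46.5 TPM in transfected and 36.3, 35.4 and 29.04 TPM in untransfected cells (log2 fold 0.42, SE 0.090, adjusted p = 0.00994). FTSJ3 was at 135, 145 and 145 TPM in transfected and 119, 126 and 117 TPM in untransfected cells (log2 fold 0.23, SE 0.057, adjusted p = 0.0181). Both rose, and in both the groups did not overlap. The FTSJ3 call was lost after quantile normalization (adjusted p = 0.0784) and on omitting untransfected replicate 1 (0.0659), transfected replicate 2 (0.074) or transfected replicate 3 (0.0835), over a range of 0.00234 to 0.0835. NOP2 was the lowest of the 49 genes, at 3.03, 2.94 and 2.64 TPM in transfected and 2.49, 1.32 and 2.13 TPM in untransfected cells (log2 fold 0.40, SE 0.157, adjusted p = 0.0919), and did not pass. Of its exonic bases 54.4% are also exonic in AC006064.6, a gene on the same strand that overlaps NOP2, so its level is uncertain too. The NOP2 log2 fold was 0.18 with a pseudocount of 5 and 0.23 without untransfected replicate 2.

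Nucleolar GTPases check and drive remodelling of the particle. Of 4, GNL2, GTPBP4 and GNL3 rose. GNL2 was at 156, 176 and 167 TPM in transfected and 110.3, 111 and 94.02 TPM in untransfected cells (log2 fold 0.66, SE 0.080, adjusted p = 0.00117). GTPBP4 was at 139, 163 and 160.2 TPM in transfected and 105, 106 and 85.8 TPM in untransfected cells (log2 fold 0.64, SE 0.099, adjusted p = 0.00286). GNL3 (nucleostemin), the most abundant of the 49 mRNAs, was at 340.4, 389.8 and 383 TPM in transfected and 294, 290.3 and 248 TPM in untransfected cells (log2 fold 0.42, SE 0.084, adjusted p = 0.00799). All 3 genes had separate groups, with the lowest values in transfected replicate 1 and untransfected replicate 3 of each group. Its paralog GNL3L did not pass, at 29.5, 28.9 and 28.4 TPM in transfected and 26.8, 26.7 and 25.1 TPM in untransfected cells (log2 fold 0.14, SE 0.060, adjusted p = 0.125), although its groups did not overlap. Its log2 fold was 0.05 to 0.08 under the scalings and GC and length correction.

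The AAA ATPases MDN1 and NVL pull assembly factors off the particle. MDN1 acts on NLE1 and WDR12, and NVL acts on WDR74. All 4 genes of this group rose. NVL (ENSG00000143748, chromosome 1, 224227334 to 224330387, minus strand) was at 81.3, 90.96 and 92.6 TPM in transfected and 53.1, 60.4 and 47.4 TPM in untransfected cells (log2 fold 0.71, SE 0.094, adjusted p = 0.00156). WDR74 (ENSG00000133316, chromosome 11, 62832342 to 62841809, minus strand) was at 44.8, 46.03 and 46.4 TPM in transfected and 27.9, 30.5 and 26.9 TPM in untransfected cells (log2 fold 0.67, SE 0.065, adjusted p = 0.000507). MDN1, which encodes one of the longest human proteins, was at 69.8, 75.3 and 68.4 TPM in transfected and 51.6, 49.8 and 47.6 TPM in untransfected cells (log2 fold 0.51, SE 0.062, adjusted p = 0.00115). Groups were separate for each, and NVL varied most within the untransfected group. NLE1 rose by 0.37 with an adjusted p of 0.00912. The kit marks strand, but how counting used it is unknown here. In 10 of the 49 genes, exons on the opposite strand overlap over 10% of exonic bases. These are NSA2 (58.7%), CEBPZ (23.2%), NIP7 (20.2%), NOP16, MAK16, GTPBP4, EBNA1BP2, FTSJ3, NLE1 (12.6%) and WDR74 (12.2%). Exons on the same strand overlap 10.1% of WDR74.

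PELP1, TEX10, WDR18 and the SUMO protease SENP3 form a complex that meets MDN1 on the particle, and LAS1L with NOL9 cuts and phosphorylates the spacer RNA. This group had a median log2 fold of 0.22, the lowest of the 9 role groups, and 2 of 6 genes rose (33.3%, against 20% of all tested genes). The count depended on threshold and processing. At an unadjusted p below 0.05, 5 of the 6 were higher, against 26.8% of tested genes. After median-ratio scaling, after GC and length correction, or on omitting transfected replicate 1 with untransfected replicate 3, 4 were higher. With the mitochondrial and the 20 top genes removed, 1 was higher. PELP1 (ENSG00000141456, chromosome 17, 4669774 to 4704337, minus strand) was at 85.02, 81.8 and 82.6 TPM in transfected and 59.8, 60 and 63.6 TPM in untransfected cells (log2 fold 0.44, SE 0.054, adjusted p = 0.0012). TEX10 was at 30.9, 35.01 and 32.99 TPM in transfected and 28.6, 28.5 and 26.2 TPM in untransfected cells (log2 fold 0.24, SE 0.071, adjusted p = 0.0355). PELP1 was clearly apart between groups, while the 2 groups of TEX10 came close to each other. The TEX10 call was lost with the mitochondrial and the 20 top genes removed (adjusted p = 0.0527), without a variance trend (0.0525), and without any library other than transfected replicate 1 (0.0593 to 0.126), over a range of 0.015 to 0.126.

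The other 4 did not pass. WDR18 was at 74.1, 61.8 and 68.3 TPM in transfected and 54.9, 58.6 and 60.6 TPM in untransfected cells (log2 fold 0.22, SE 0.077, adjusted p = 0.0609). LAS1L was at 46.6, 50.6 and 52.6 TPM in transfected and 43.9, 45.2 and 40.2 TPM in untransfected cells (log2 fold 0.21, SE 0.071, adjusted p = 0.0593). NOL9 was at 27.7, 29.5 and 29.2 TPM in transfected and 26.3, 25.6 and 23.1 TPM in untransfected cells (log2 fold 0.20, SE 0.070, adjusted p = 0.0627). In these 3 the groups did not overlap but lay within a few TPM of each other. WDR18 passed without transfected replicate 2 (adjusted p = 0.0424), without untransfected replicate 3 (0.0455) and after GC and length correction (0.000851), over a range of 0.000851 to 0.306. LAS1L passed without transfected replicate 1 (0.0486), after median-ratio scaling (0.034) and after GC and length correction (0.0245), over 0.0159 to 0.204. NOL9 passed after median-ratio scaling (0.0492) and quantile normalization (0.0482), over 0.0392 to 0.178. On omitting the pair of transfected replicate 1 and untransfected replicate 3, LAS1L (0.0159) and NOL9 (0.0392) passed as well. With the mitochondrial and the 20 top genes removed, the log2 folds of WDR18, LAS1L and NOL9 were 0.13, 0.12 and 0.11.

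SENP3 had the smallest change of the 49, at 17.00, 16.6 and 15.7 TPM in transfected and 17.6, 16.2 and 13.98 TPM in untransfected cells (log2 fold 0.05, SE 0.091, adjusted p = 0.735), and its groups overlapped. Its log2 fold was -0.04 without untransfected replicate 3, and omitting untransfected replicate 1 gave 0.12. In GENCODE 29, 41.2% of SENP3 exonic bases are exonic in another gene on the same strand, the readthrough gene SENP3-EIF4A1, which is listed at 0.36 to 0.84 TPM. How reads in this overlap were counted is not given in the sources used here, so the level of SENP3 is uncertain as well. EIF4A1, the neighbour in that readthrough and a translation initiation factor, was listed at 4.52 to 6.56 TPM. It did not pass (log2 fold -0.27, SE 0.094, adjusted p = 0.0593).

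The late group holds proteins that keep the place of ribosomal proteins (MRTO4 for the stalk, RSL24D1 for RPL24), the export adaptor NMD3, its release GTPase LSG1, and EIF6, which keeps the subunits apart until the end. MRTO4, LSG1 and EIF6 rose. MRTO4 (ENSG00000053372, chromosome 1, 19251539 to 19260128, plus strand) was at 185, 184 and 192 TPM in transfected and 132, 135 and 112 TPM in untransfected cells (log2 fold 0.57, SE 0.077, adjusted p = 0.00176). LSG1 was at 52.97, 55.98 and 54.7 TPM in transfected and 41.3, 44.1 and 35.8 TPM in untransfected cells (log2 fold 0.43, SE 0.081, adjusted p = 0.00628). EIF6 was at 92.8, 86.02 and 99.3 TPM in transfected and 75.7, 83.3 and 64.4 TPM in untransfected cells (log2 fold 0.32, SE 0.098, adjusted p = 0.0416), and 17.4% of its exonic bases are exonic in another gene on the same strand. The gap between groups was wide for MRTO4 and under 3 TPM for EIF6. The EIF6 call was lost without any library other than untransfected replicate 2 (adjusted p = 0.0571 to 0.14), after quantile normalization (0.0695) and without a variance trend (0.0649), over a range of 0.0229 to 0.14.

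NMD3 did not pass, at 65.6, 78.5 and 74.2 TPM in transfected and 62.8, 63.7 and 49.5 TPM in untransfected cells (log2 fold 0.31, SE 0.109, adjusted p = 0.0627). It passed without transfected replicate 1 (adjusted p = 0.0458), after median-ratio scaling (0.0292), after quantile normalization (0.0498) and after GC and length correction (0.00742). It also passed on omitting the pair of transfected replicate 1 and untransfected replicate 3 (0.00612), over a range of 0.00612 to 0.195. Its log2 fold was 0.20 without untransfected replicate 3 and 0.20 after GC and length correction. NSA2 was at 104, 119.7 and 119 TPM in transfected and 104, 101 and 92.5 TPM in untransfected cells (log2 fold 0.20, SE 0.075, adjusted p = 0.0772), and transfected replicate 1 fell within the untransfected range. Without that library it passed (adjusted p = 0.0378, range 0.00691 to 0.31), as it did without that library and untransfected replicate 3 (0.00691). After quantile normalization its log2 fold was 0.07. Of NSA2 exonic bases 58.7% are exonic in genes on the opposite strand. RSL24D1 was at 30.6, 37.3 and 37.4 TPM in transfected and 36.01, 37.7 and 25.4 TPM in untransfected cells (log2 fold 0.10, SE 0.149, adjusted p = 0.646). Its 3 transfected values lay within the untransfected range, untransfected replicate 3 was the lowest library of all 6, and without it the log2 fold was -0.07. Leaving out any one of the other 5 libraries gave 0.05 to 0.20.

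Ratios of mRNAs within a library do not depend on how that library was scaled. They were taken for 11 pairs of partners or paralogs, chosen with the values known, and the smallest p that an exact permutation test of 3 against 3 allows is 0.1. The PES1 to BOP1 ratio was 2.12 ± 0.11 (SD, n = 3) in transfected and 1.77 ± 0.04 in untransfected cells, and the PES1 to WDR12 ratio 4.09 ± 0.33 and 3.24 ± 0.05. BRIX1 to EBNA1BP2, a pair that binds together in early particles, was 0.92 ± 0.01 and 0.75 ± 0.04. URB1 to URB2 was 0.99 ± 0.05 and 0.82 ± 0.08, GNL3 to GNL3L 12.85 ± 1.13 and 10.56 ± 0.60, and PELP1 to SENP3 5.07 ± 0.19 and 3.88 ± 0.60. In these 6 pairs the groups did not overlap (exact permutation p = 0.1 each, two-sided). How often gene pairs in general separate was not counted, so 6 of 11 only describes the chosen pairs.

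The other 5 pairs overlapped. NVL to WDR74, the ATPase and its target, was 1.93 ± 0.10 and 1.88 ± 0.11 in transfected and untransfected cells (exact permutation p = 0.6). LAS1L to NOL9 was 1.73 ± 0.06 and 1.73 ± 0.05 (exact permutation p = 0.9), and the paralogs RRP1B and RRP1, both on chromosome 21, were at 2.16 ± 0.06 and 2.11 ± 0.14 (exact permutation p = 0.6). RPF2 to RRS1 was 2.01 ± 0.12 and 2.26 ± 0.28 (exact permutation p = 0.3), and RPF1 to MAK16 3.62 ± 0.09 and 3.40 ± 0.13 (exact permutation p = 0.2). A p of this size with 3 libraries a group does not show that a ratio was the same.

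**Figure D3:**
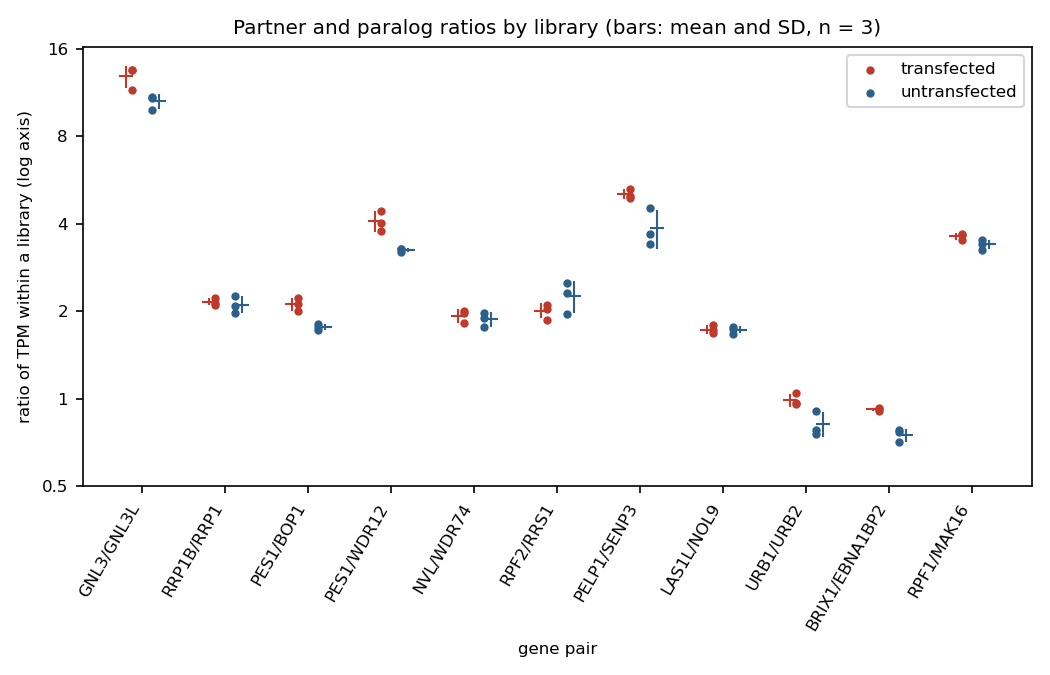
Ratio of TPM within each library for 11 pairs of partner or paralog genes, on a log axis; points are libraries, and the cross beside them marks the mean and SD of 3 libraries. The transfected points of PES1/BOP1, PES1/WDR12 and BRIX1/EBNA1BP2 lie above the untransfected points, while those of NVL/WDR74 and LAS1L/NOL9 overlap.

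Other genes of the same pathway were read from lists. Of 39 further 60S assembly factors, 25 were higher and 0 lower (2 lower at an unadjusted p below 0.05), with a median log2 fold of 0.32. The largest change among them was that of CCDC86, a nucleolar protein, at 87.7 ± 4.30 TPM in untransfected and 152.6 ± 6.47 TPM in transfected cells (mean ± SD, n = 3; log2 fold 0.79), followed by the RNA helicase DDX27 (0.62) and CMSS1 (0.57). Under the 4 alternatives in scaling and correction named above, or with untransfected replicate 3 left out, 1 or 2 of them were lower. Of 57 factors of the small (40S) subunit, 47 (82.5%) were higher and 0 lower (1 lower at an unadjusted p below 0.05). Their median was 0.47, and RRP12 (1.02), WDR43 (0.86) and PNO1 (0.82) led the list. Under the same alternatives 1 of the 57 was lower.

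Ribosomal proteins of the large subunit are the cargo of these factors. Of their 47 genes, 1 was higher and 0 lower (0 lower at an unadjusted p below 0.05), and the median log2 fold was 0.05, that of all genes tested. The gene that passed was RPL11, at 1599 ± 15.9 TPM in untransfected and 1855 ± 25.6 TPM in transfected cells. Median-ratio scaling gave 1 higher and 1 lower (median -0.01), quantile normalization 3 and 5 (-0.07), removal of mitochondrial and top genes 0 and 2 (-0.04), and GC and length correction 1 and 6 (-0.07). Leaving out untransfected replicate 3 gave 1 higher and 1 lower (-0.04), and leaving out any one of the other 5 libraries gave 0 higher. Omitting it together with transfected replicate 1 gave 5 higher and 1 lower. The difference between the lists was not tested.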

How the data were processed

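RNA from HEK293 cells (3 transfected and 3 untransfected libraries) was sequenced as 75 nt pairs from a stranded total RNA kit, per the labels' protocols. The authors deposited TPM per gene and library. The submitters' processing notes name STAR and GRCh38. How reads were counted, with which annotation and strand setting, is not given in the sources used here. Of 18298 rows, 134 repeated an Ensembl ID with identical values and were dropped. TPM add up to 1000000 in each library, so a rise in abundant transcripts lowers the rest, and depth is unknown.

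A gene was tested if it reached 1 TPM in 3 or more of the 6 libraries (16145 genes). Testing was on log2(TPM + 1) with limma 3.58.1 in R 4.3.3 (group as the only term, empirical Bayes, variance trended on mean level). P-values are two-sided, adjusted by Benjamini-Hochberg over every tested gene, with a threshold of 0.05. The fit was tested on simulated data. Members and lists were chosen with earlier results of these data known. Values in every library are given for up to 3 members that passed in each role group, by size of change, and for every member that did not pass. PPAN falls outside this rule and was chosen after its values were seen. Up to 3 genes that passed were named from each other list. Positions and exon overlaps come from GENCODE 29 on GRCh38 and promoters from RefSeq (GRCh38.p14). Alternatives were pseudocounts of 0.1 and 5, no filter or one of 5 TPM, median-ratio scaling, quantile normalization, removal of mitochondrial and the 20 top genes by mean TPM, a fit with no trend in the variance, one with replicate number as a block, GC and length correction of the fold changes, and the omission of each library in turn or of transfected replicate 1 with untransfected replicate 3. A marker of another cell type is not reported here.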

Additional observations from a re-analysis of the deposited data

How the results depend on the processing

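The 17 alternatives gave 832 values for the 49 genes (NOP2 was below the filter of 5 TPM). Of these, 774 kept direction and call, 34 lost the call, 18 gained it and 6 changed sign. Of the 38 genes called higher, 31 kept the call under every alternative. Counts of higher members ran from 32 to 42, with 0 lower under each, and the median log2 fold from 0.32 to 0.43. The sign changed only in genes that did not pass. With single libraries left out, the log2 fold of RSL24D1 ran from -0.07 to 0.20 and that of SENP3 from -0.04 to 0.12, both lowest without untransfected replicate 3. After GC and length correction RSL24D1 was at -0.03. SENP3 was at -0.01 after median-ratio scaling, -0.04 with mitochondrial and top genes removed, and -0.06 on omitting the pair of transfected replicate 1 and untransfected replicate 3. Over all genes, 3236 were higher and 1644 lower. With single libraries left out these were 1820 to 2955 and 965 to 2027. The lower count was 2789 after median-ratio scaling, 2887 after quantile normalization, 3241 with mitochondrial and top genes removed, and 3439 after GC and length correction; the cause was not tested. With the replicate number as a block, 34 members were higher and 0 lower, against 14.8% and 7.04% of tested genes. The calls of EIF6, FTSJ3, TEX10 and WDR12 were lost, and 0 ribosomal protein genes of the large subunit were higher or lower. Same-numbered libraries did not deviate together (r of -0.184, 0.107 and -0.163), and differently numbered libraries had r of -0.188 to 0.309. With 3 libraries per group these values cannot decide whether the numbers mark a pairing. Depth is unknown and sets no limit that can be stated here.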
